A study of Mus musculus with 4 samples.

Results

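Fatty acid oxidation genes and targets of PPAR-alpha were followed in mouse liver after an overdose of acetaminophen (APAP). The 44 genes were chosen by symbol and cover mitochondrial and peroxisomal beta-oxidation, fatty acid uptake and the carnitine shuttle, acyl-CoA thioesterases, ketone bodies, the Cyp4a omega-hydroxylases and signals of fasting. All 44 were found among the 27027 entries of the count table. Male C57BL/6J mice, 9 to 12 weeks old, were fasted overnight for 10 h, injected intraperitoneally with saline (control) or with APAP at 300 mg/kg, and given free access to food until liver was taken at 24 h or 48 h. Liver RNA of 6 control or 7 APAP mice was combined at equal shares, so that each of the 4 groups was 1 pool and gave 1 library by massive analysis of cDNA ends (MACE), a 3′mRNA sequencing method that counts fragments next to the poly(A) tail and removes PCR copies by molecular identifiers. The libraries held 4859661 (control at 24 h), 5191990 (control at 48 h), 5698778 (APAP at 24 h) and 4938164 (APAP at 48 h) counted reads.

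With 1 library per group there was no replicate, and no test between conditions could be made. Levels are given as reads scaled to a library total of 1000000 counted reads (RPM), and paired values are in the order 24 h and 48 h. Folds are ratios of reads divided by the library's size factor, which was 0.880 and 0.933 for control at 24 h and 48 h and 1.17 and 1.07 for APAP, so a fold differs somewhat from the ratio of RPM values. The 95% interval beside a fold is an exact (Clopper-Pearson) interval of counting error only, and holds nothing of the spread between mice or between pools. A gene was compared where both libraries together held at least 20 reads, with 3 reads as the floor, and was called higher or lower at a fold of 2 or more. In whole liver RNA, fewer cells of a type and less RNA per cell cannot be told apart. The liver label was matched by its defining genes, since 11 hepatocyte genes led by Alb (albumin) summed to 101147 and 102565 RPM in control and 106329 and 119012 RPM in the APAP pools.

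Hepatocytes take up fatty acids, bind them to FABP1, activate them to acyl-CoA and carry them over carnitine into mitochondria for beta-oxidation, while very long chains are shortened in peroxisomes and a side route, omega-oxidation by Cyp4a enzymes, starts from the methyl end. In fasting, the acetyl-CoA formed feeds ketone body synthesis. PPAR-alpha, a nuclear receptor activated by fatty acids, binds DNA with RXR and switches on genes of all these steps, with PGC-1alpha (Ppargc1a) as a coactivator.

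Most of the genes were lower in the APAP pools at 48 h, and at 24 h how many depended on the scaling. At 24 h, 43 of the 44 were compared, of which 8 were called lower, where 5.47% of all 12196 compared entries were, and 2 were called higher, where 6.37% were. The median log2 fold of the genes was −0.34, beside 0.01 over all entries, and 31 genes were below 0. Scaled to hepatocyte genes in place of all entries, the 24 h median was −0.05, with 23 genes below 0. At 48 h, 11 of 41 compared genes were called lower (5.58% of 12218 entries) and 1 higher (6.05%), with a median of −0.58 beside −0.01. Well-counted entries leaned the same way to a smaller degree, with 7.68% called lower and 2.45% higher at 24 h, 9.42% lower and 1.88% higher at 48 h, and a median of −0.10 at 24 h and −0.18 at 48 h over the 2162 and 2124 entries with at least 500 reads. The counting interval lay below 1 for 22 genes at 24 h and 30 genes at 48 h, and above 1 for 9 and 2. At 24 h this was 51.2% of the compared genes below 1, beside 18.2% of all entries and 44.3% of those with at least 500 reads, so the share was near that of well-counted entries. At 48 h it was 73.2%, beside 18.8% and 50.4%. The shares above 1 were 20.9% at 24 h, beside 15.8% and 22.2%, and 4.88% at 48 h, beside 14.0% and 20.8%. Of the 41 genes compared at both times, 7 were past 2-fold lower at both (17.1%; Fabp1, Acsl1, Ehhadh, Acaa1b, Acot1, Cyp4a12a and Cyp4a12b), beside 2.28% of all 11748 entries compared at both times and 5.29% of the 2023 of them with at least 500 reads at each time. Another 4 were lower at 48 h alone (9.76%; Acaa1a, Decr2, Eci1 and Vnn1), beside 3.05% and 4.1%. Angptl4 and Acot2 were higher at 24 h alone (4.88%, beside 3.5% and 0.939%) and Cyp4a14 at 48 h alone (2.44%, beside 3.47% and 0.643%), and 27 genes were past 2-fold at neither time. Pdk4, lower at 24 h, and Fgf21, within 2-fold at 24 h, were not compared at 48 h, and Cyp4a32 was compared at neither time.

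Together the 44 genes took 0.777% and 0.891% of the reads of the control pools at 24 h and 48 h, and 0.540% and 0.343% of the APAP pools. Much of this was Fabp1, with 0.313%, 0.422%, 0.123% and 0.0630% in the same order. Without Fabp1, the share was 0.464% and 0.469% in the control pools, 0.417% in APAP at 24 h and 0.280% in APAP at 48 h. The plots of levels and of folds show all genes by role.

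**Figure D1:**
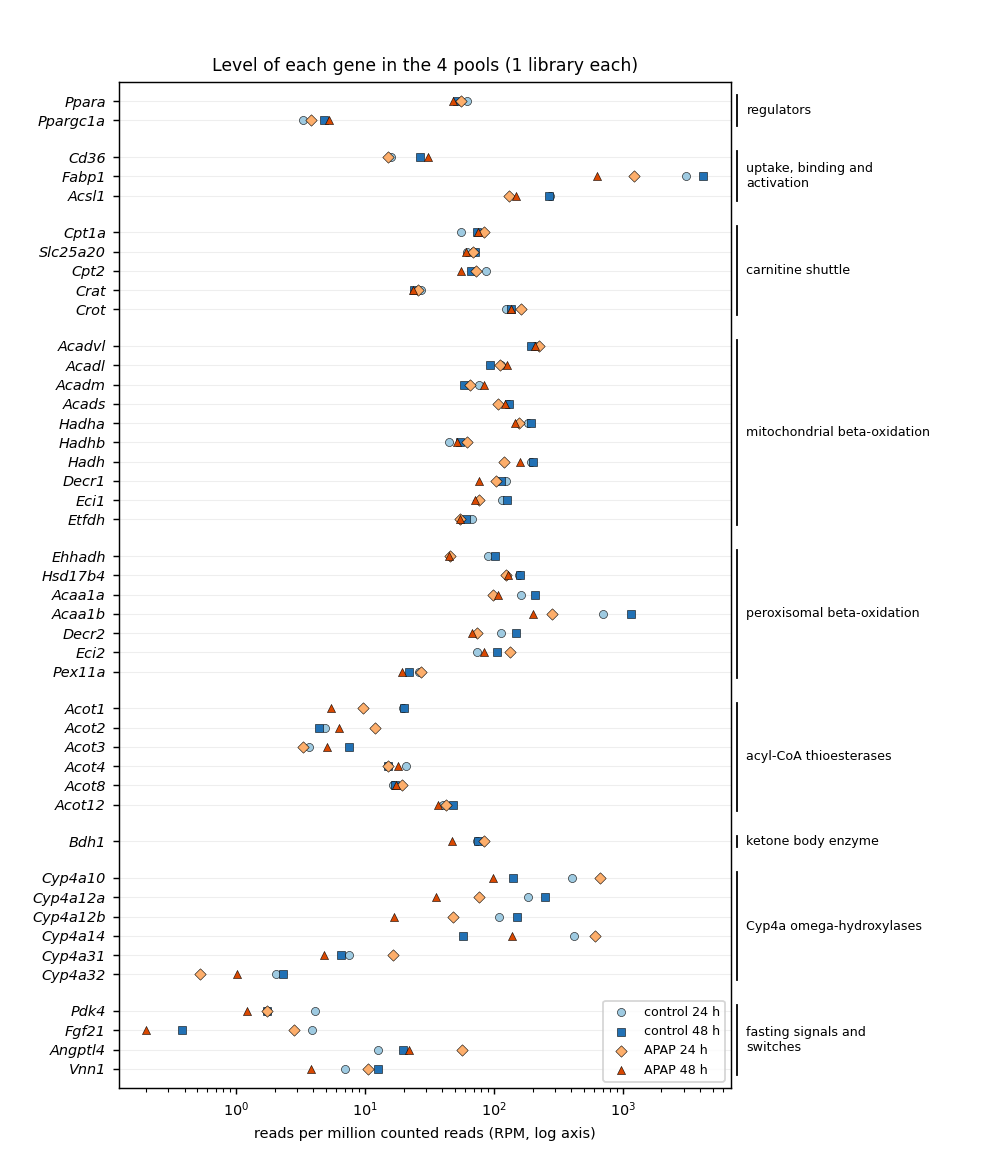
Level of each of the 44 genes (RPM, log axis) in the 4 pools, 1 point per library, grouped by role. Fabp1 spans from 630.2 RPM in the APAP pool at 48 h to 4221 RPM in the control pool at 48 h, while the 10 mitochondrial genes lie between 45.1 and 224.4 RPM in all 4 pools.

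**Figure D2:**
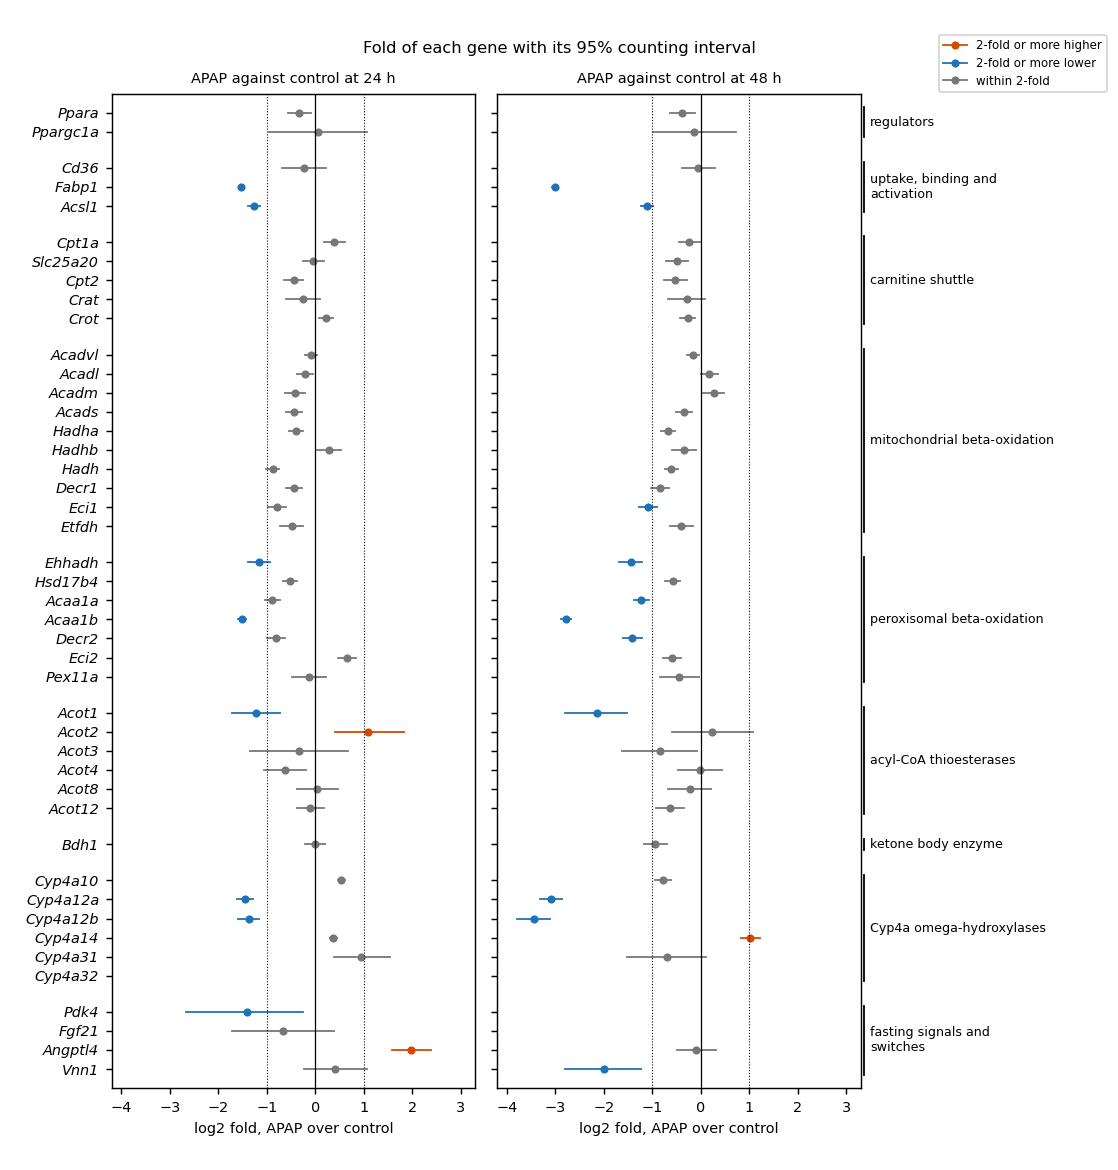
Log2 fold of APAP over control at 24 h (left) and 48 h (right), with 95% counting intervals as lines and the 2-fold limits dotted; genes under 20 reads over both libraries (Cyp4a32 at both times, Pdk4 and Fgf21 at 48 h) are left blank. All 7 peroxisomal genes lie to the left of 0 at 48 h.

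The receptor gene stayed within 2-fold. Ppara was at 61.9 and 52.0 RPM in control and 56.0 and 48.0 RPM in the APAP pools. It was 1.26 times lower at 24 h (1.07 to 1.48) and 1.30 times lower at 48 h (1.09 to 1.56). Within-arm values between times were of a like size, with 1.18 times lower in control and 1.22 times lower in APAP at 48 h than at 24 h. Ppargc1a was counted with 16, 25, 22 and 26 reads in control at 24 h, control at 48 h, APAP at 24 h and APAP at 48 h, and with a 24 h fold of 1.03 (0.517 to 2.10) and a 48 h fold of 0.909 (0.505 to 1.64), a difference was not detectable at this depth. The deposited identifier of its entry also names an overlapping predicted gene as a possible source of reads.

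Uptake, binding and activation held the largest change in reads. Fabp1, the fatty acid binding protein of the hepatocyte cytosol, was at 3127 RPM in control at 24 h and 4221 RPM in control at 48 h, and at 1229.6 RPM and 630.2 RPM in the APAP pools. Both APAP pools were below both control pools. It was 2.89 times lower at 24 h (2.81 to 2.98) and 8.05 times lower at 48 h (7.76 to 8.36). Between 24 h and 48 h the level went in opposite directions in the arms, 1.36-fold higher in control (1.33 to 1.39) and 2.05 times lower in APAP (1.96 to 2.13). Acsl1, which activates long-chain fatty acids to acyl-CoA, was at 275.7 and 267.3 RPM in control and 130.7 and 148.6 RPM in the APAP pools. It was 2.40 times lower at 24 h (2.19 to 2.63) and 2.16 times lower at 48 h (1.98 to 2.37), and the APAP pools differed by 1.08-fold between the times (0.978 to 1.20). Cd36, a fatty acid translocase, was higher at 48 h in both arms. It was at 15.8 and 26.8 RPM in control and 15.3 and 31.0 RPM in APAP at 24 h and 48 h, 1.70-fold (1.28 to 2.28) and 1.94-fold (1.48 to 2.55) higher at the later time, and the intervals of its folds against control included 1 at both times.

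PPAR-alpha with RXR is known to bind direct repeats of AGGTCA spaced by 1 base, so the 300 bases around the start of each gene (250 before and 50 after, RefSeq, GRCm38.p6) were searched on both strands for AGGTCANAGGTCA. A window was at hand for 34 of the 44 genes (37 windows) and not for Angptl4, Crat, Cyp4a10, Cyp4a12a, Cyp4a12b, Cyp4a14, Cyp4a31, Decr1, Hsd17b4 and Vnn1. With at most 1 mismatch in the 12 fixed letters, 2 of these 37 windows (5.41%) held the element, those of Fabp1 and Acot12, beside 0.554% of all 32851 windows. With at most 2 mismatches the shares were 13.5% (adding Acot4, Cd36 and Slc25a20) and 3.86%, and the 6-letter core AGGTCA alone, which the element contains, was in 24.3% and 16.3%. Both windows with a close match are printed because Fabp1 had the largest loss of reads of the list and Acot12 is the other gene with such a match. Capitals mark the element on the opposite strand (TGACCTATGGCCT from base −67 of Fabp1, TGACCTCTCACCT from base −110 of Acot12) and, in Fabp1, a further copy of the core from base −9. The Fabp1 window is chr6:71199629-71199928 and the Acot12 window chr13:91741271-91741570, both on the plus strand.
Fabp1: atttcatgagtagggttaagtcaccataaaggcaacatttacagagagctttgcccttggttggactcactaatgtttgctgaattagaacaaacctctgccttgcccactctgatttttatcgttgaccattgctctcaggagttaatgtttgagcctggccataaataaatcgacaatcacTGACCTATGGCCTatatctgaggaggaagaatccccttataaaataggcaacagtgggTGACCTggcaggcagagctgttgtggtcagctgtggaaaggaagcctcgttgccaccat
Acot12: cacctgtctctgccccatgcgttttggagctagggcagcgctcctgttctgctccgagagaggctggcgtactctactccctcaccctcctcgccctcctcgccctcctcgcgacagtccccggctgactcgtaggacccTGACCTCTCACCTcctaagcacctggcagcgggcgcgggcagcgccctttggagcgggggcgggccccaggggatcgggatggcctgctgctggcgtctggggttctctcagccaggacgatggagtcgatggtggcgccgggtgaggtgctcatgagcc

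The fold of Acot12 was smaller than that of Fabp1. Acot12, a thioesterase that cleaves acetyl-CoA, was at 40.1 and 48.0 RPM in control and 42.5 and 37.1 RPM in the APAP pools, with a fold of 0.930 (0.767 to 1.13) at 24 h and 1.56 times lower at 48 h (1.28 to 1.89). A match is a description of letters and not a binding site.

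The carnitine shuttle stayed within 2-fold at both times. Cpt1a, the entry step into the mitochondrion and the target of malonyl-CoA, was at 56.0 and 74.2 RPM in control and 83.5 and 75.7 RPM in APAP at 24 h and 48 h. The 24 h control pool was the low one of the 4. At 24 h the fold of Cpt1a was 1.31 (1.13 to 1.53), at 48 h it was 0.849 (0.735 to 0.982), and against the other control pool the log2 folds were −0.03 and 0.18. Crot, which moves medium-chain acyl groups from peroxisomes onto carnitine, was at 123.5 and 137.1 RPM in control and 163.0 and 137.1 RPM in APAP, with folds of 1.16 (1.05 to 1.29) and 0.831 (0.747 to 0.925). Cpt2, the inner-membrane transferase, was 1.37 times lower at 24 h (1.19 to 1.57) and 1.44 times lower at 48 h (1.22 to 1.69). The carrier gene Slc25a20 had a fold of 0.970 (0.833 to 1.13) at 24 h and was 1.41 times lower at 48 h (1.20 to 1.64). Crat, carnitine acetyltransferase, had intervals that include 1 at both times. The median log2 fold of the 5 genes was −0.04 at 24 h and −0.29 at 48 h. Its 24 h direction turned with library totals (0.14) and with scaling to hepatocyte genes (0.24), and at 48 h it was −0.02 with library totals.

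Mitochondrial beta-oxidation genes were lower by small amounts. Of the 10 genes, 8 had intervals below 1 at 24 h and 8 at 48 h, with medians of −0.43 and −0.38 on the log2 scale, and Eci1 alone passed 2-fold, at 48 h. The 24 h median was −0.24 with library totals and −0.15 scaled to hepatocyte genes, and the 48 h median was −0.11 with library totals. Eci1, an isomerase for unsaturated fatty acids, was at 116.9 and 126.7 RPM in control and 76.9 and 71.7 RPM in APAP. It was 1.73 times lower at 24 h (1.53 to 1.97) and 2.13 times lower at 48 h (1.87 to 2.43). Decr1, the reductase that also acts on unsaturated chains, was 1.37 and 1.79 times lower at 24 h and 48 h. Hadh, the short-chain 3-hydroxyacyl-CoA dehydrogenase, was 1.85 times lower at 24 h and 1.53 times lower at 48 h.

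The acyl-CoA dehydrogenases, which open each round of oxidation and differ by the chain length they accept, had small folds of either direction. Very-long-chain Acadvl had folds of 0.939 (0.864 to 1.02) and 0.894 (0.819 to 0.976) at 24 h and 48 h. Long-chain Acadl, whose deposited identifier also names an overlapping predicted gene, had folds of 0.864 and 1.13, and short-chain Acads of 0.740 and 0.784. Medium-chain Acadm was at 77.2 and 58.7 RPM in control and 65.5 and 84.6 RPM in APAP, with a fold of 0.745 (0.644 to 0.862) at 24 h and 1.20 (1.03 to 1.39) at 48 h. Here the control pools alone differed by 1.30 times (1.12 to 1.52).

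The trifunctional protein makes the later steps from the products of Hadha and Hadhb. Hadha was 1.32 times lower at 24 h (1.20 to 1.45) and 1.60 times lower at 48 h (1.45 to 1.76). Hadhb was at 45.1 and 54.5 RPM in control and 62.1 and 51.6 RPM in APAP, with folds of 1.21 (1.02 to 1.44) and 0.788 (0.663 to 0.937). The end of Hadhb matches a processed pseudogene over 166 bases at 99.4% identity, so its reads could be divided by the counting. Etfdh, which passes the electrons to the respiratory chain, was 1.41 and 1.32 times lower at 24 h and 48 h.

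Peroxisomal beta-oxidation genes were lower to a larger degree, with medians of −0.82 at 24 h and −1.23 at 48 h, and at 48 h all 7 had intervals below 1. The 24 h median was −0.53 scaled to hepatocyte genes. Against the control pool of the other time point the medians were −1.21 at 24 h and −0.85 at 48 h, so the order of the times turned. From 24 h to 48 h the median log2 fold of these genes was 0.38 in control and −0.20 in APAP. Acaa1b, a thiolase of the last step, was at 706.2 and 1153 RPM in control and 282.3 and 201.9 RPM in APAP. It was 2.85 times lower at 24 h (2.68 to 3.02) and 6.86 times lower at 48 h (6.42 to 7.35). Like Fabp1 it was higher in the control pool of 48 h than in that of 24 h, by 1.64-fold (1.58 to 1.72), and in APAP it was 1.47 times lower at 48 h than at 24 h (1.35 to 1.59). Its neighbour on chromosome 9, Acaa1a, encodes the same activity, and 282 of the last 300 bases match Acaa1b at 98.6%. Acaa1a was at 162.2 and 209.2 RPM in control and 99.5 and 107.3 RPM in APAP, 1.85 times lower at 24 h (1.66 to 2.07) and 2.34 times lower at 48 h (2.11 to 2.60). Summed, so that it does not matter which of the 2 genes a read was given to, the pair was 2.59 times lower at 24 h and 5.30 times lower at 48 h. Any reads left uncounted because they match both genes are not in this sum.

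Ehhadh, the bifunctional enzyme that hydrates and dehydrogenates the chain, was at 90.1 and 101.9 RPM in control and 45.6 and 45.0 RPM in APAP. It was 2.25 times lower at 24 h (1.92 to 2.63) and 2.72 times lower at 48 h (2.33 to 3.20). Hsd17b4, the other bifunctional enzyme, was 1.44 times lower (1.29 to 1.59) and 1.49 times lower (1.34 to 1.66). Decr2, the peroxisomal dienoyl-CoA reductase, was at 114.8 and 150.0 RPM in control and 74.2 and 67.8 RPM in APAP, 1.76 times lower at 24 h (1.55 to 2.00) and 2.66 times lower at 48 h (2.34 to 3.03).

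Eci2, a peroxisomal isomerase, was the exception at 24 h. It was at 74.1 and 105.9 RPM in control and 132.7 and 84.6 RPM in APAP, with a fold of 1.57 (1.39 to 1.79) at 24 h and 0.665 (0.584 to 0.756) at 48 h. Its last bases match Eci3 at 96.5% over 256 bases. Pex11a, which serves peroxisome division, had a fold of 0.914 (0.719 to 1.17) at 24 h and was 1.36 times lower at 48 h (1.03 to 1.80).

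The acyl-CoA thioesterases, which release the free fatty acid from CoA, did not move together. Acot1 and Acot2 are neighbours on the plus strand of chromosome 12 (GRCm38, Acot2 from 83987861 to 83993873 and Acot1 from 84009490 to 84018371). Their products act in the cytosol and in mitochondria, and no shared end of at least 100 bases at 95% identity was found between the genes. Acot1 was at 19.8 and 20.03 RPM in control and 9.65 and 5.47 RPM in APAP, 2.33 times lower at 24 h (1.66 to 3.31) and 4.40 times lower at 48 h (2.86 to 6.999). Acot2 was at 4.94 and 4.43 RPM in control and 11.9 and 6.28 RPM in APAP, 2.12-fold higher at 24 h (1.32 to 3.54) and 1.18-fold at 48 h (0.665 to 2.12). So at 24 h the pair was past 2-fold in opposite directions. Acot4 was 1.55 times lower at 24 h (1.15 to 2.09) with a fold of 0.985 at 48 h, and Acot8 of peroxisomes had intervals that include 1 at both times. Acot3, whose deposited identifier like that of Acot4 also names an overlapping gene, rested on 18, 39, 19 and 25 reads and was the only gene of the list called higher between the control pools, by 2.04-fold (1.14 to 3.80).

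Bdh1, the mitochondrial enzyme that reduces acetoacetate to the ketone body beta-hydroxybutyrate, was at 73.9 and 75.5 RPM in the control pools, 83.4 RPM in APAP at 24 h and 47.4 RPM in APAP at 48 h. The last pool stood apart, with a fold of 0.991 (0.862 to 1.14) at 24 h and 1.92 times lower at 48 h (1.63 to 2.26).

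The Cyp4a omega-hydroxylases did not move as a unit. Their genes form a cluster on chromosome 4 (GRCm38), with Cyp4a12a (115299046 to 115332815) and Cyp4a12b (115411624 to 115439034) at its start, followed by Cyp4a14 (115486200 to 115496142, on the minus strand), Cyp4a10 (115518264 to 115533649), Cyp4a31 (115563649 to 115579015) and Cyp4a32 (115600969 to 115621602). Cyp4a12a was at 186.0 and 251.7 RPM in control and 77.4 and 35.6 RPM in APAP, 2.74 times lower at 24 h (2.44 to 3.07) and 8.49 times lower at 48 h (7.25 to 9.997). Cyp4a12b was at 110.7 and 152.0 RPM in control and 48.6 and 16.8 RPM in APAP, 2.59 times lower at 24 h (2.24 to 3.01) and 10.9 times lower at 48 h (8.66 to 13.8). The APAP pools were below the control pools for both. Their last bases match at 98.6% over 295 bases, so reads may cross between them, and summed they were 2.68 and 9.25 times lower at 24 h and 48 h.

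Cyp4a10 and Cyp4a14, the fatty acid hydroxylases best known as induced by fasting and PPAR-alpha activators, depended on the time in the control pools too. Cyp4a14 was at 416.1 RPM in control at 24 h and 57.4 RPM in control at 48 h, and at 612.2 and 139.5 RPM in APAP. It was 1.29-fold higher than control at 24 h (1.22 to 1.37) and 2.02-fold higher at 48 h (1.76 to 2.32). Against the control pool of 24 h the APAP pool of 48 h was lower instead, with a log2 fold of −1.83, and against the sum of both control pools it was −0.99. Cyp4a10 was at 405.0 and 140.8 RPM in control and 667.9 and 98.2 RPM in APAP, 1.45-fold higher at 24 h (1.37 to 1.53) and 1.72 times lower at 48 h (1.53 to 1.94). Against the control pool of 48 h, Cyp4a10 and Cyp4a14 were both past 2-fold higher in APAP at 24 h. Against the control pool of 24 h, Cyp4a10 was past 2-fold lower in APAP at 48 h. From 24 h to 48 h both were lower in both arms: Cyp4a14 by 7.19 times in control and 4.60 times in APAP, and Cyp4a10 by 2.85 times in control and 7.13 times in APAP.

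Cyp4a31 was at 7.61 and 6.55 RPM in control and 16.7 and 4.86 RPM in APAP, with folds of 1.92 (1.30 to 2.89) at 24 h and 0.617 (0.350 to 1.07) at 48 h. Cyp4a32 had 10, 12, 3 and 5 reads and was not compared with control. The ends of Cyp4a31 and Cyp4a32 match Cyp4a10 at 97% and 97.3% over 300 bases, and the 3 genes summed were 1.45-fold higher at 24 h and 1.73 times lower at 48 h, close to Cyp4a10 alone. The plot of Cyp4a levels shows them side by side.

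**Figure D3:**
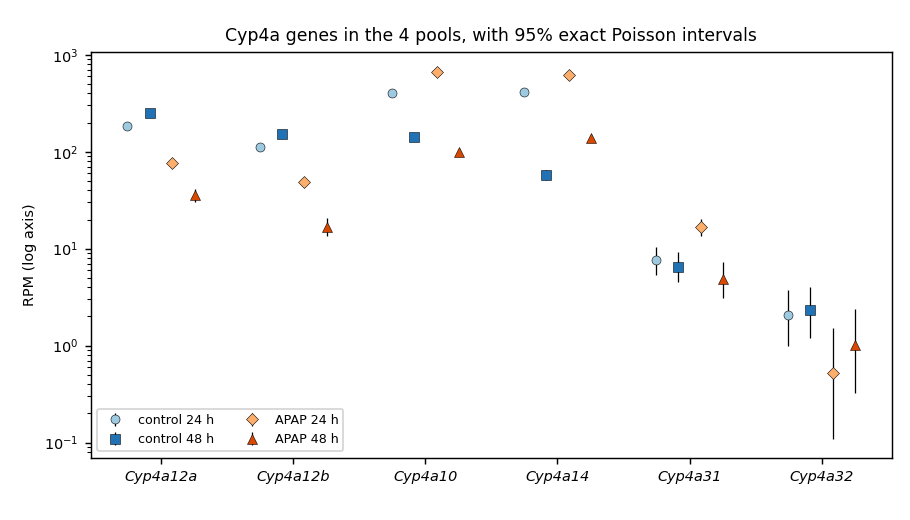
RPM (log axis) of the 6 Cyp4a genes in the 4 pools, 1 point per library, with 95% exact Poisson intervals as lines. For Cyp4a12a and Cyp4a12b both APAP points lie under both control points, whereas for Cyp4a10 and Cyp4a14 the 24 h points lie over the 48 h points in either arm.

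Among the signals and switches of fasting, Angptl4 stood out. Angptl4, a secreted inhibitor of lipoprotein lipase, was at 12.8 and 19.6 RPM in control, 56.9 RPM in APAP at 24 h and 22.1 RPM in APAP at 48 h. It was 3.92-fold higher at 24 h (2.98 to 5.22), while its fold at 48 h was 0.934 (0.707 to 1.24). Against the control pool of 48 h its log2 fold at 24 h was 1.34 in place of 1.97. The 24 h fold was 4.19 times that at 48 h (2.86 to 6.15). Vnn1, a pantetheinase anchored to the cell surface, was at 6.996 and 12.7 RPM in control and 10.5 and 3.85 RPM in APAP, with a fold of 1.32 (0.854 to 2.08) at 24 h and 3.97 times lower at 48 h (2.36 to 7.01). Against the control pool of 24 h its log2 fold at 48 h was −1.12 in place of −1.99.

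The remaining pair was near the limit of counting. Pdk4, a kinase that shuts off pyruvate dehydrogenase, had 20, 9, 10 and 6 reads in control at 24 h, control at 48 h, APAP at 24 h and APAP at 48 h; it was called lower at 24 h, by 2.67 times (1.19 to 6.39), where the log2 fold against the control pool of 48 h was −0.18, and was not compared at 48 h. Fgf21, a liver hormone of fasting, had 19 and 2 reads in control and 16 and 1 in APAP. As counted, without the floor of 3 reads or the minimum of 20, its ratio of the 48 h to the 24 h pool was 0.0993 in control (0.0112 to 0.412) and 0.0688 in APAP (0.00164 to 0.443), and no fold between APAP and control was formed at 48 h.

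Set against the time in each arm, the list differed. From 24 h to 48 h in APAP, 8 of 41 compared genes were called lower (3.4% of 12528 entries) and 0 higher (3.15%), with a median log2 fold of −0.24 beside −0.01 over all entries. These were the 5 compared Cyp4a genes with Fabp1, Angptl4 and Vnn1. With library totals or scaled to hepatocyte genes, Fabp1 was within 2-fold between the APAP pools instead. Between the control pools, 4 of 44 were called lower (1.97% of 11715 entries; Cyp4a10, Cyp4a14, Pdk4 and Fgf21) and 1 higher (2.42%; Acot3), with a median of 0.06 beside 0.02. Of the genes lower over time in APAP, Fabp1, Cyp4a12a and Cyp4a12b were 1.36-fold to 1.38-fold higher over the same time in control, Angptl4 1.55-fold (1.12 to 2.16) and Vnn1 1.83-fold (1.19 to 2.86). Acaa1b also went in opposite directions in the arms, as the plot of the 48 h to 24 h folds shows. The control pools differed in time after injection and in the mice they came from, which cannot be told apart.

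**Figure D4:**
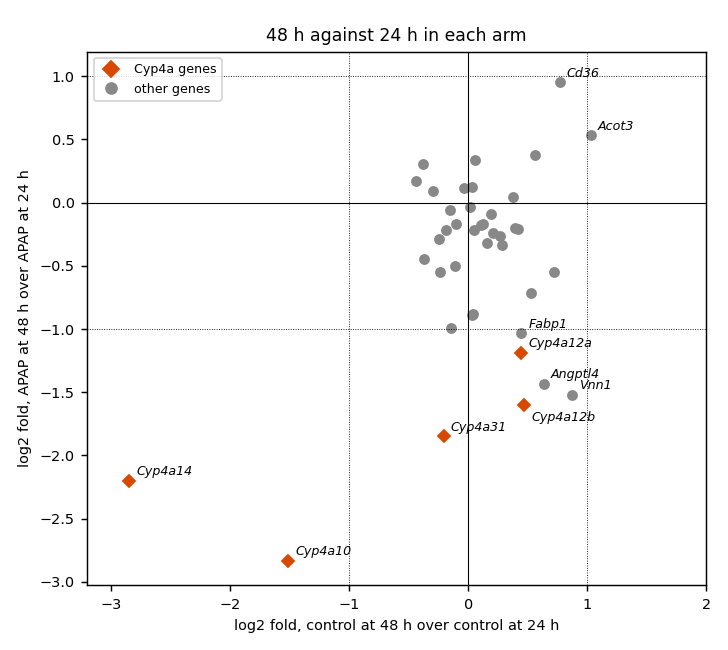
Log2 fold of the 48 h over the 24 h pool in control (horizontal) and APAP (vertical) for the 41 genes compared in both arms, with the Cyp4a genes as diamonds and the 2-fold limits dotted. Cyp4a10 and Cyp4a14 lie at the lower left, low at 48 h in both arms, while Fabp1, Cyp4a12a, Cyp4a12b, Vnn1 and Angptl4 lie at the lower right.

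The ratio of the 48 h fold to the 24 h fold compares APAP against control between the times. Of the 41 genes compared at both times, its interval lay below 1 for 21 (51.2%), above 1 for 5 (12.2%; Acadl, Acadm, Hadh, Acot4 and Cyp4a14) and included 1 for 15. Over all 11748 entries compared at both times the shares below and above 1 were 11.6% and 9.29%, and over the 2023 of them with at least 500 reads at each time 28.4% and 20.8%. Among the large ratios, the 24 h fold was 5.25 times the 48 h fold for Vnn1 (2.59 to 10.8) and 4.19 times for Cyp4a12b (3.21 to 5.49). It was 3.12 times for Cyp4a31 (1.55 to 6.26), 3.10 times for Cyp4a12a (2.56 to 3.77) and 2.78 times for Fabp1 (2.65 to 2.92). For Cyp4a10 it was 2.50 times (2.20 to 2.84) and for Acaa1b 2.41 times (2.20 to 2.64). For Acsl1 and Ehhadh, lower at both times, the interval included 1.

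Further genes of the pathway were read from 2 lists of other symbols. Of 55 other oxidation and ketogenesis genes, 53 were compared, and 9 were called lower and 1 higher at each time, beside 5.47% and 6.37% of all entries at 24 h and 5.58% and 6.05% at 48 h. The medians were −0.56 at 24 h and −0.52 at 48 h, with −0.27 at 24 h scaled to hepatocyte genes and −0.25 at 48 h with library totals. Nudt7, a peroxisomal enzyme that degrades CoA, was at 359.9 and 457.4 RPM in control and 55.3 and 66.0 RPM in APAP, 7.41 times lower at 24 h (6.57 to 8.38) and 8.33 times lower at 48 h (7.42 to 9.38). Acacb, whose malonyl-CoA restrains Cpt1, was 6.40 times lower at 24 h (5.27 to 7.81) and 9.51 times lower at 48 h (7.62 to 12). Aldh3a2, a fatty aldehyde dehydrogenase, was 3.63 and 4.12 times lower, and Abcd3, a peroxisomal fatty acid transporter, 3.24 and 2.93 times lower at 24 h and 48 h. Cyp4f14, an omega-hydroxylase of another subfamily, was 3.18 times lower at 24 h. It was lower at 48 h too, at 166.2 RPM in control and 72.1 RPM in APAP. Abcd2, a related transporter, was the gene called higher at 48 h, by 3.12-fold (1.70 to 6.12). Slc22a5, the carnitine transporter, was the gene called higher at 24 h, by 2.18-fold (1.31 to 3.76), and is named here after its value was seen. Hao2 was at 0 reads in all 4 libraries.

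Of 32 other PPAR-alpha targets and partners, 31 were compared, and 3 (9.68%) were called lower and 1 (3.23%) higher at each time, to be read against the same shares of all entries as for the first list. The medians of −0.17 and −0.21 turned to 0.01 and 0.06 with library totals, and at 24 h to 0.11 scaled to hepatocyte genes. Fitm1, a lipid droplet protein, was at 34.2 and 36.4 RPM in control and 6.67 and 1.62 RPM in APAP, 5.83 times lower at 24 h (4.08 to 8.53) and 27.0 times lower at 48 h (13.4 to 63.5), the latter from 189 against 8 reads. Cidec, another droplet protein, had 15 reads in control and 87 in APAP at 24 h, 4.35-fold higher (2.50 to 8.10). At 24 h Lpin1 and G0s2 were 2.27 and 2.23 times lower. Both were within 2-fold with library totals or scaled to hepatocyte genes, which left 1 gene of this list called lower at 24 h. Lpin1 was also within 2-fold at 24 h against the control pool of 48 h. At 48 h Mgll, a lipase of monoglycerides, was 2.77 times lower and Tmem97 2.07 times lower, while Fabp4 was 2.13-fold higher (1.52 to 3.01). Against the control pool of 24 h, Mgll and Tmem97 were both within 2-fold at 48 h. Tmem97 was so with library totals and scaled to hepatocyte genes too. Rxra, the partner of PPAR-alpha, had folds of 1.16 (1.02 to 1.32) and 1.004 (0.884 to 1.14). Retsat, a retinol saturase, was lower at 48 h than at 24 h in both arms, 2.44 times in control and 2.16 times in APAP, the only gene of this list so called in control.

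Cell type markers moved beside these genes, and each list is named with the gene that has the most reads over the 4 pools. Among all compared entries, 5.47% were called lower and 6.37% higher at 24 h, and 5.58% lower and 6.05% higher at 48 h. Of the genes of hepatocytes around the central vein (pericentral), 10 of 11 compared were called lower at 24 h and 11 of 12 at 48 h, with medians of −2.12 and −2.06. Their summed level was 4723 and 4902 RPM in control and 1781 and 1633 RPM in APAP, and Cyp2e1 was the most abundant in the sum. The 12 periportal genes, led by Cps1, had medians of 0.09 and 0.10, with 1 called higher and 2 lower at each time and a summed level of 3470.4 and 3915 RPM in control and 3619 and 4675 RPM in APAP. Macrophage and monocyte markers, led by Lyz2, summed to 189.5 and 191.3 RPM in control and 280.2 and 463.5 RPM in APAP. Of these, 3 of 9 were called higher at 24 h and 5 of 10 at 48 h. At 24 h, 4 of the 9 were below 0 and the median log2 fold was 0.16, beside 2 of 10 and 1.32 at 48 h. In the control pools Clec4f was the most abundant of them, at 55.1 and 50.3 RPM, beside 17.3 and 20.6 RPM of Lyz2. In APAP, Clec4f was at 33.5 RPM at 24 h and 59.5 RPM at 48 h, and Lyz2 at 67.4 and 133.4 RPM. Neutrophil markers, led by S100a8, went from 3.29 and 3.47 RPM to 44.4 and 36.0 RPM, with 3 of 3 compared higher at each time. Of the stellate and fibroblast markers, led by Dcn, 0 of 8 were called higher at 24 h and 4 at 48 h, with sums of 91.8, 99.96, 123.4 and 215.3 RPM in control at 24 h, control at 48 h, APAP at 24 h and APAP at 48 h. For endothelial markers, led by Eng, 1 of 8 was called higher at each time, with sums of 176.6, 191.8, 213.2 and 241.0 RPM in that order. For cholangiocyte markers, led by Sox9, it was 1 of 3 compared, with sums of 26.3, 33.5, 82.8 and 67.0 RPM. Sox9 alone was at 11.9, 13.3, 53.9 and 28.6 RPM, while Krt19 had 6, 13, 8 and 8 reads. At 48 h, 1 of the 3 was below 0. Lymphocyte markers (Cd8a at 0) and adipocyte markers summed to 4.32 RPM or less in each pool and were not compared. The part of these changes in the folds of the oxidation genes was not tested.

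The size of the shift depended on how libraries were scaled. With library totals, the median of all entries moved to 0.20 at 24 h and 0.26 at 48 h, and with scaling to the 11 hepatocyte genes to 0.30 and 0.04. These 11 did not move together, and 7 of them were below 0 at each time. Their log2 folds ran from −0.83 to 1.49 at 24 h (median −0.28) and from −0.72 to 0.54 at 48 h (median −0.05). A scaling adds the same amount to every log2 fold of a comparison, so the median of the oxidation genes minus that of all entries (−0.35 at 24 h and −0.57 at 48 h) cannot change with it. Scaled to hepatocyte genes, 3 genes were called higher and 5 lower at 24 h, where 11.3% and 2.85% of all entries were, since Acsl1, Ehhadh and Acot1 were then within 2-fold and Cyp4a31 past it, and 12 intervals lay below 1 in place of 22 and 13 above 1 in place of 9. With library totals, Ehhadh at 24 h and Acaa1a, Acsl1 and Eci1 at 48 h were within 2-fold, and Acaa1a and Eci1 were so at 48 h against the control pool of 24 h too. At 24 h the direction of Acadl, Acadvl, Acot12, Bdh1, Cd36, Crat, Pex11a and Slc25a20 depended on the scaling, and at 48 h with library totals that of Acadvl, Acot4, Acot8, Angptl4, Cd36, Cpt1a and Ppargc1a.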

How the data were processed

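Liver RNA of 4 pools was measured by MACE. The authors digested the RNA with DNase, removed duplicate reads by molecular identifiers, trimmed reads with cutadapt, mapped them on mm10, and the deposited values used here are raw counts for each gene, obtained by HTSeq. Per the labels, HTSeq and DESeq2 were used, and their versions are not given in the sources used here. The deposited table also holds RPM values and the authors' own log2 ratios, p-values and FDR values, which were not used.

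Size factors (median of ratios) came from DESeq2 1.42.0, with TMM of edgeR 4.0.16 as an alternative, in R 4.3.3. Neither test was run, since each group had 1 library. Folds and intervals were computed in Python 3.11.15 with scipy 1.17.1, and the procedure was tested on simulated data. The depth was 4859661 to 5698778 reads per library, where 3 reads are 0.526 to 0.617 RPM. The interval of a ratio of folds is on the log scale where all 4 counts were at least 50 and exact otherwise. The last 300 bases of transcripts (GENCODE M21) were compared by blastn 2.17.0 (at least 95% identity over 100 bases). Full values were given for genes past 2-fold, regulators and genes with opposite directions, and from other lists for at most 5 genes past 2-fold per time. Other genes of the 44 are described within their role, and Slc22a5, Hao2, Rxra and Retsat were named after their values were seen. The genes, lists and alternatives were chosen with earlier results of these data known. The alternatives for the other pathway lists were added after the data were seen. The real-time PCR and knockout experiments were not analysed here. Values of some single genes of the pathway are not reported here.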

Additional observations from a re-analysis of the deposited data

Results flagged for a closer look

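For 6 genes the folds of APAP against control pointed in opposite directions at 24 h and 48 h, with counting intervals on opposite sides of 1. That is 14.6% of the 41 genes compared at both times, beside 1.53% of all 11748 entries and 5.29% of the 2023 with at least 500 reads at each time. The difference was not tested between conditions, since each group was 1 library. Cpt1a had a fold of 1.31 at 24 h and 0.849 at 48 h, Crot of 1.16 and 0.831, Hadhb of 1.21 and 0.788, Eci2 of 1.57 and 0.665, and Cyp4a10 of 1.45 and 0.580. Acadm went the other way, with 0.745 at 24 h and 1.20 at 48 h. For Cpt1a and Hadhb the 24 h direction depended on the control pool (log2 folds of −0.03 and −0.01 against the control pool of 48 h). For Cpt1a and Acadm so did the 48 h direction (0.18 and −0.12 against that of 24 h), and for Cpt1a it also turned with library totals (0.03). Crot and Eci2 were nearer to 1 against the other control pool. Reads divided by the size factor were 682.1 and 763.4 in control and 791.3 and 634.8 in APAP for Crot. For Eci2 they were 409.3 and 589.7 in control and 643.9 and 391.9 in APAP. By RPM, Crot was at 137.1 in both 48 h pools.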

How the results depend on the processing

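The medians of the genes kept their sign under all alternatives run. They ran from −0.37 to −0.05 (scaled to hepatocyte genes) at 24 h, −0.59 to −0.31 at 48 h, −0.25 to −0.15 within APAP and 0.03 to 0.09 within control. Counts moved too. With a threshold of 1.5-fold, 4 were higher and 14 lower at 24 h, 20 lower at 48 h, 1 higher within APAP and 5 higher within control, where 14.7%, 14.2%, 14.2%, 9.49% and 8.25% of all entries were. At 5-fold, 0 were higher and 0 lower at 24 h, 0 higher and 4 lower at 48 h, 1 lower within APAP, and 0 higher and 2 lower within control, where 1.05% and 0.631%, 0.614% and 0.794%, 0.495%, and 0.0768% and 0.0768% of all entries were. Against the other control pool, or the sum of both, 5 were higher at 24 h (6.64% and 5.67% of all entries) and 0 at 48 h (6.21% and 5.44%), while 11 and 10 were lower at 24 h (6.51% and 6.26%) and 13 and 15 at 48 h (4.77% and 5.43%). Without genes that share an end, 5 of 36 compared genes were lower at 24 h, 7 of 34 at 48 h and 5 of 34 within APAP (5.47%, 5.58% and 3.4% of all entries). Scaling to hepatocyte genes left 5 lower at 24 h (2.85% of all entries), and with it or library totals 1 (Cd36) was higher within APAP (3.98% and 3.83%). For single genes, the alternatives were counted only for the 35 calls past 2-fold, which gave 184 values. Of these, 140 stayed within their range, 42 moved and 2 reversed, both Cyp4a14 at 48 h (−1.83 against the other control pool, −0.99 against the sum). The genes within 2-fold whose direction turned, named above, are not among these values. The causes were not tested. TMM factors, a floor of 10 reads, no filter on low counts and calls limited to intervals on 1 side of 1 changed no count by over 1.5 times. No paired analysis was possible because each group was 1 pool. Depth limits Ppargc1a, Acot3, Cyp4a32, Pdk4 and Fgf21, and intervals cover counting error only.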
